A study of Mus musculus with 4 samples.

Results

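Beta-catenin (Ctnnb1) and the 4 DNA-binding factors of the TCF/LEF family (Lef1, Tcf7, Tcf7l1 and Tcf7l2) were read in OP9 cells, a mouse bone marrow stromal line used to support blood progenitors in culture. The 5 genes were chosen by name, of 27597 gene names on the array. Every probe whose annotated gene, or whose current symbol reached through the transcript accession, was 1 of the 5 was taken, which gave 14 probes (23 spots) of 41174. The array design still calls Tcf7l1 by an older name, Tcf3, and both of its probes were placed under Tcf7l1 by accession. The 3 probes that the design calls Tcf4 belong to another gene, an E protein, and none of them was taken.

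The Wnt3A group held 2 samples of OP9 cells that carried the retroviral vector LZRS-IRES-GFP with the Wnt3A gene in it. The Control group held 2 samples of OP9 cells with the same vector and no insert. Each sample was hybridised in Cy3 to a 1-colour Agilent mouse array of its own, after its mRNA had been amplified by a global PCR step. The labels speak of replicates of each condition without stating whether cultures or transductions were separate. The p-values therefore describe only how far these samples lie from each other, which may be technical, and precision is limited by having 4 arrays.

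Beta-catenin has a place in cell junctions, where it links cadherins to the actin cytoskeleton, and another in Wnt signalling. Without a Wnt ligand, a complex built on Axin and APC marks free beta-catenin for degradation. When a Wnt ligand binds its receptors, beta-catenin accumulates, enters the nucleus and binds TCF/LEF proteins, which otherwise sit on DNA with corepressors of the Groucho/TLE family. Much of this control acts on the protein, and an array reads only mRNA.

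Values are the deposited intensities, a linear scale on which the median spot of every array is 1. A change is the mean of Wnt3A minus the mean of Control in log2 intensity after subtraction of the 75th percentile of each array. It was tested with limma on 33709 probes, those that exceeded an estimated detection floor on both Wnt3A arrays or on both Control arrays, and p-values were adjusted over all of them by the Benjamini-Hochberg method with a threshold of 0.05. The floors were 0.0533 and 0.0729 in the Wnt3A arrays and 0.0702 and 0.0631 in the Control arrays. An exact test of 2 against 2 arrays cannot give a two-sided p below 0.333.

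The arrays of a group resembled each other more than those of the other group. Pearson's r over the tested probes was 0.935 within Wnt3A and 0.930 within Control, against 0.876 to 0.885 between the groups, and the median SD within groups was 0.41 (log2). The single Wnt3a probe had 0.0112 and 0.123 in the Wnt3A arrays and 0.0151 and 0.0134 in the Control arrays, above the floor on 1 array, and does not show whether the insert was expressed. Of 11 stromal markers fixed for the check, 10 were above the floor on every array, and Lum was on none. Their summed intensity was 2105 and 2096 in the Wnt3A arrays and 1014 and 1385 in the Control arrays, but the markers went both ways. Without overlap, Col1a1, Col1a2, Col3a1 and Sparc were higher in Wnt3A, and Pdgfra and Vim were lower. Col1a1 had 671 and 736 in the Wnt3A arrays and 158 and 256 in the Control arrays, and Pdgfra had 13.1 and 8.99 in Wnt3A and 42.1 and 64.1 in Control. Macrophage (10), B cell (8) and epithelial (6) markers were also all above the floor on every array, so the floor alone does not separate cell types here. Their sums were 14.8 and 11.6, 14.2 and 11.95, and 12.7 and 14.9 in the Wnt3A arrays, against 16.9 and 13.1, 24.8 and 20.03, and 15.25 and 11.01 in the Control arrays. The part of these markers in the results was not tested. All values are from the deposited table. The deposited scanner files, whose values for some member probes are given after them, often ran the other way. In these bulk samples, fewer cells of a type and less RNA per cell cannot be told apart.

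Of the 13 member probes tested, 0 passed the adjusted threshold, against 0.679% of all tested probes (0.424% higher and 0.255% lower). The nearest were both probes of Tcf7, at about 8 times the Control level, and the lowest adjusted p among the members was 0.0548. At an unadjusted p under 0.05 stood 4 member probes, both of Tcf7 and both tested ones of Lef1, all higher in Wnt3A, where 6.95% of all tested probes were higher by that rule and 6.54% were lower. Of these, Lef1 A_51_P501145 was below the floor on Control replicate 1 and entered the test only through the Wnt3A arrays. Its p therefore rests in part on an undetected value. Ctnnb1 was higher on its 2 bright probes and lower on a dim one, with intervals that include 0. Tcf7l1 and Tcf7l2 overlapped between the groups on every probe. Without overlap between the groups were 6 member probes on the higher side and 1 on the lower, shares to be read against 22.2% and 22.9% of all tested probes.

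**Figure D1:**
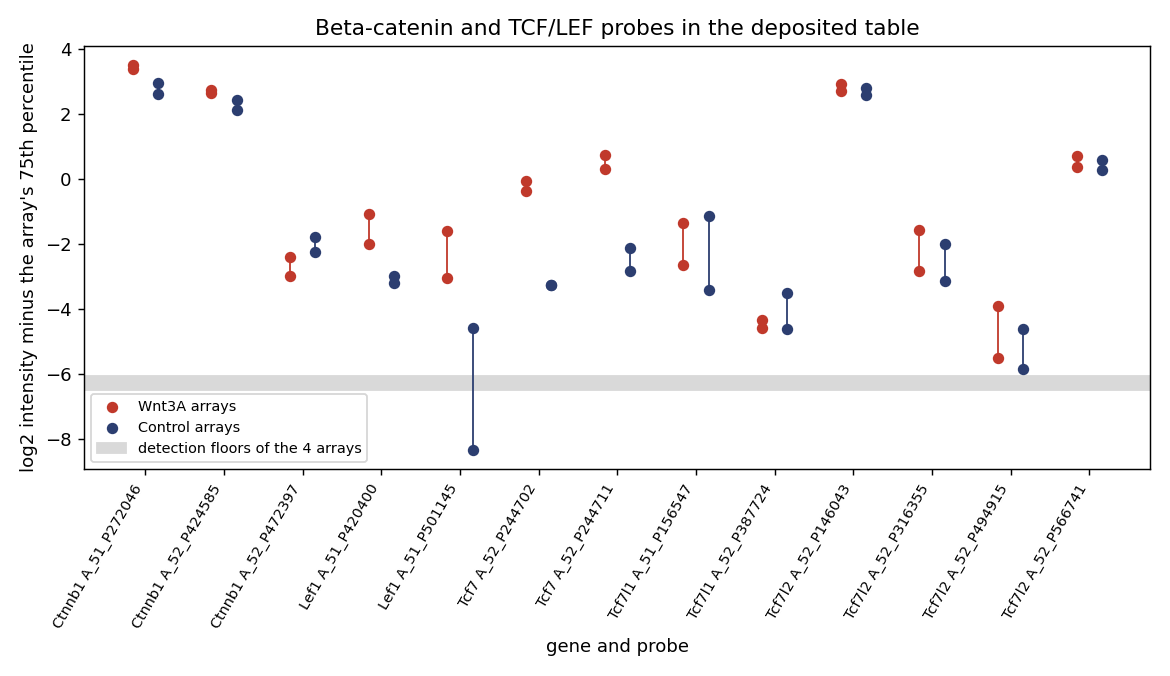
Log2 intensity minus the 75th percentile of the array, for the 13 tested probes of the 5 genes, Wnt3A arrays left of Control arrays, a line joining the arrays of a group and a grey band over the range of the detection floors. Both Tcf7 probes lie higher on the 2 Wnt3A arrays than on the 2 Control arrays, and the Tcf7l1 and Tcf7l2 probes overlap.

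Ctnnb1 encodes beta-catenin itself, the coactivator that TCF/LEF proteins recruit. Its 3 probes lie on the plus strand of chromosome 9 (build mm8, as for all probe positions here, taken from the array annotation). A pair designed on the RefSeq transcript lies close together, A_51_P272046 at chr9:120808358-120808417 and A_52_P424585 at chr9:120808854-120808913. The other, A_52_P472397 at chr9:120804855-120804914, was designed on the cDNA AK020013 and starts 3503 bases upstream. The first 30 bases of each are printed because the probes differ in level and in direction:
A_51_P272046: gaaggagatgttcatgtgtggaagtttctc
A_52_P424585: ttctaagaaccgagtaatggtgtagaacac
A_52_P472397: aagggacatggagtgtaatgtactgttgtg

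A_51_P272046 had 54.2 and 51.2 in the Wnt3A arrays, against 28.7 and 38.9 in the Control arrays. Both Wnt3A values were above both Control values. The change was 0.67 ± 0.32 (SE, n = 2 and 2; 95% interval -0.19 to 1.53), or 1.59-fold, with an adjusted p of 0.478 in limma. This probe was printed 10 times on each array, which gives a view of the spread within an array. Its spots ran from 51.3 to 57.3 and from 47.9 to 54.2 in the Wnt3A arrays, and from 27.1 to 30.4 and from 35.2 to 41.6 in the Control arrays. The spots of different groups did not overlap, and neither did those of the 2 Control arrays. Spots of an array share their RNA and are not replicates.

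**Figure D2:**
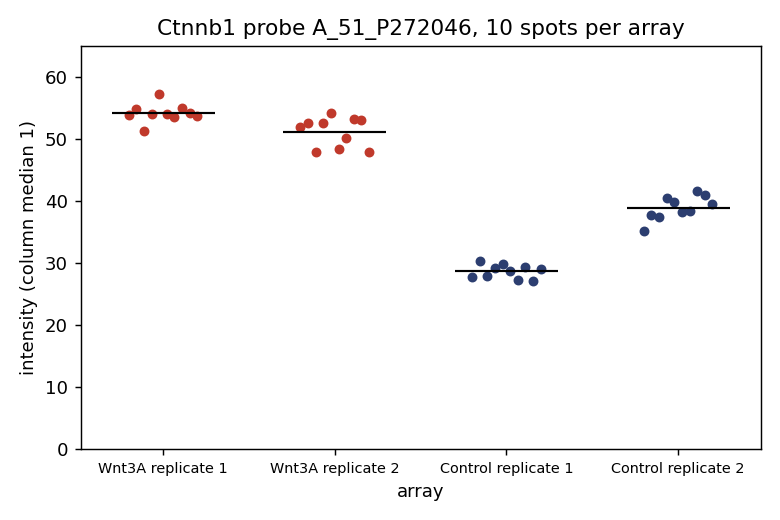
Intensity of the 10 spots of Ctnnb1 probe A_51_P272046 on each array, Wnt3A left of Control. The spots of Wnt3A replicates 1 and 2 lie between 47.9 and 57.3, and those of Control replicates 1 and 2 between 27.1 and 41.6.

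A_52_P424585 had 30.03 and 32.8 in the Wnt3A arrays and 20.5 and 27.0 in the Control arrays. The groups again did not overlap, and the change was 0.43 (95% interval -0.42 to 1.27, adjusted p 0.646). A_52_P472397 ran the other way, with 0.897 and 0.621 in the Wnt3A arrays and 1.36 and 1.06 in the Control arrays. Its change was -0.67 (95% interval -1.71 to 0.38, adjusted p 0.555), also without overlap. On every array this probe stood near the middle of all probes, between the 43.1 and 55.2 percentiles, where A_51_P272046 stood between 94.5 and 97.2. What the upstream probe matches in the gene was not determined, since no genome of this build was used here.

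Tcf7 encodes TCF-1, named for its part in T cell development and itself a known target of Wnt signalling. Its 2 probes lie on the minus strand of chromosome 11, A_52_P244711 at chr11:52096752-52096811 and A_52_P244702 at chr11:52096035-52096094. They start 717 bases apart on the same transcript, so they read the mRNA at separate places. Their first 30 bases are shown since these probes had the smallest p among the members:
A_52_P244711: ttttgtttgctgtaggtcagatgggttgga
A_52_P244702: ttttttcattctcgctgtagatagcctgaa

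A_52_P244711 had 5.96 and 8.22 in the Wnt3A arrays, against 1.08 and 0.706 in the Control arrays. A_52_P244702 had 3.73 and 4.67 in the Wnt3A arrays, against 0.485 and 0.523 in the Control arrays. On both probes the lower Wnt3A array was several times above the higher Control array. Among all probes of an array, A_52_P244711 stood at the 78.3 and 82.1 percentiles in Wnt3A and at the 51.6 and 45.0 percentiles in Control.

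The change was 3.01 ± 0.41 on A_52_P244711 (SE; 95% interval 1.90 to 4.13, adjusted p 0.0892) and 3.06 ± 0.31 on A_52_P244702 (95% interval 2.22 to 3.90, adjusted p 0.0548), 8.07-fold and 8.35-fold. By its unadjusted p, A_52_P244702 ranked 258 of 33709 probes. It passed the threshold with a floor 2 times as high (adjusted p 0.0411) and with trend and robust settings in limma (0.0485), and without any 1 array, where 0 of all tested probes passed, its change ran from 2.92 to 3.21 and that of A_52_P244711 from 2.65 to 3.38. Averaged over both probes and tested over genes, the change was 3.04 ± 0.33 with an adjusted p of 0.0479, which passed. In the remaining table settings with all 4 arrays, A_52_P244702 did not pass. Its adjusted p there ran from 0.0563 with no scaling to 0.134 with the replicate number as a block. A_52_P244711 passed in no table setting with all 4 arrays, with a lowest adjusted p of 0.0612 under trend and robust settings. In the main fit neither Tcf7 probe passed, so whether Tcf7 is called moves with these choices.

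Lef1 encodes the lymphoid enhancer factor, the close relative of TCF-1 and likewise a known Wnt target. Of its 3 probes on the plus strand of chromosome 3, A_51_P420400 is annotated from 131194088 to 131212249. That stretch of 18162 bases is longer than the 60-base probe, so the probe crosses at least 1 exon junction. A_51_P501145 lies at chr3:131213273-131213332. A_52_P333110 lies 106980 bases upstream of it, at chr3:131106293-131106352, and was designed on another cDNA, AK042137. The first 30 bases are given because 1 of the 3 probes stayed below the floor:
A_51_P420400: gtacaggtcccagaatgacagctgcctaca
A_51_P501145: atctgtttttattagccgattagtgggaat
A_52_P333110: tctacggaaaggctaaaaggtcaacaaata

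A_51_P420400 had 2.27 and 1.21 in the Wnt3A arrays, against 0.588 and 0.543 in the Control arrays. The Wnt3A arrays differed from each other more than the Control arrays did, and the groups did not overlap. The change was 1.56 ± 0.44 (SE; 95% interval 0.37 to 2.76), 2.95-fold, with a limma p of 0.0215 and an adjusted p of 0.271.

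A_51_P501145 had 0.578 and 1.62 in the Wnt3A arrays and 0.0145 and 0.209 in the Control arrays, where the first Control value was below the floor. The groups did not overlap. The fitted change of 4.15 ± 1.40 (adjusted p 0.336) rested on that value, since it was 2.28 without Control replicate 1 and 6.02 without Control replicate 2. A_52_P333110 had 0.0182 and 0.0562 in the Wnt3A arrays and 0.0157 and 0.0145 in the Control arrays. All 4 values were below the floor, and the probe was not tested.

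Tcf7 and Lef1 are also abundant in T cells, so T cell markers were read beside them. Of 12 markers, 11 were on the array, and 11 and 10 were above the floor in the Wnt3A arrays, against 10 and 10 in the Control arrays. Their summed intensity was 29.5 and 29.6 in Wnt3A and 23.9 and 19.9 in Control. Without overlap in deposited intensity, Cd247, Cd2, Cd4 and Cd8b1 were higher in Wnt3A and Cd3e, Cd3g and Cd5 were lower. After subtraction of the 75th percentile of each array, as for the member probes, Cd3e and Cd5 overlapped. Cd247, a chain of the T cell receptor complex, had 2.36 and 0.799 in the Wnt3A arrays and 0.312 and 0.294 in the Control arrays, and Cd8b1 had 6.06 and 6.85 in Wnt3A and 4.13 and 3.35 in Control. Lck, a kinase that acts at that receptor, was above the floor on 1 array. Intensities below the floor also exceeded 0, so a value above 0 does not show that a marker was present. The part of these markers in the Tcf7 and Lef1 values was not tested.

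Tcf7l1 encodes TCF-3, which is known mainly as a repressor. Its probes lie on the minus strand of chromosome 6, A_51_P156547 at chr6:72556737-72556796 and A_52_P387724 at chr6:72555892-72555951. A_51_P156547 had 1.88 and 0.779 in the Wnt3A arrays and 0.438 and 2.31 in the Control arrays. The arrays of each group were far apart and the groups overlapped, with a change of 0.28 (95% interval -2.28 to 2.83, adjusted p 0.941). A_52_P387724 had 0.235 and 0.203 in the Wnt3A arrays and 0.193 and 0.441 in the Control arrays, a change of -0.41 (95% interval -1.71 to 0.90, adjusted p 0.791). The intervals span several-fold changes in both directions.

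Tcf7l2 encodes TCF-4, the family member best known from the intestinal epithelium. Its 4 probes lie on the plus strand of chromosome 19. The brightest, A_52_P146043 at chr19:55961735-55961794, had 36.2 and 31.8 in the Wnt3A arrays and 32.5 and 30.2 in the Control arrays. The values interleaved, and the change was 0.13 (95% interval -0.72 to 0.97, adjusted p 0.913), so a change of 1 (log2) in either direction lies outside the interval. A_52_P566741 at chr19:55986346-55986405 had 7.85 and 6.33 in Wnt3A and 5.68 and 7.52 in Control, a change of 0.12 (95% interval -0.78 to 1.02, adjusted p 0.923). The dimmer A_52_P316355 and A_52_P494915 had changes of 0.36 (95% interval -1.41 to 2.13) and 0.53 (95% interval -1.51 to 2.56), with adjusted p of 0.872 and 0.832, and overlapped too.

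The family members share their DNA-binding domain, so probes of different genes were compared base by base. Among 77 pairs of probes between members, the longest shared run was 18 bases, between Tcf7l1 A_51_P156547 and Tcf7l2 A_52_P316355, and the next was 11, in probes of 60 bases. The run is in capitals, with 6 bases of each probe on either side:
Tcf7l1 A_51_P156547: agcattATTGGTCAATATTTGACCactctg
Tcf7l2 A_52_P316355: gagttcATTGGTCAATATTTGACCcattct

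On these 2 probes the order of the arrays differed. A_51_P156547 was highest on Control replicate 2, where A_52_P316355 was lowest. Whether either probe also captured the other mRNA was not tested.

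Scanner files were deposited as well as the table, and whether both describe the same arrays is not settled. Each of the 4 columns of the table ranked its spots most like the scanner file of Control replicate 2 (Spearman's rho over spots 0.826 to 0.845), and the table column of Control replicate 1 had a rho of 0.637 with its own scanner file. The scanner file of Control replicate 1 was faint throughout, with a median processed intensity of 7.32 and 41.8% of spots well above background. The medians were 147 and 95.01 in the Wnt3A files and 178 in that of Control replicate 2, so scanner values were compared only after log2 and subtraction of the 75th percentile of each file.

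On that scale Tcf7 A_52_P244711 had -0.80 and -0.80 in the Wnt3A files and 0.31 and 0.70 in the Control files, a change of -1.31 (95% interval -4.10 to 1.48). Both Wnt3A values were below both Control values, against the direction in the table. Tcf7 A_52_P244702 had -6.02 and 1.31 in the Wnt3A files and -3.71 and -0.49 in the Control files. That probe was well above background only in replicate 2 of each group, so it was not tested there. Lef1 A_51_P420400 had -1.30 and -2.24 in the Wnt3A files and -1.87 and -0.72 in the Control files, a change of -0.47, with its spot on Control replicate 1 not well above background. Ctnnb1 A_51_P272046 had 0.99 and 2.03 in the Wnt3A files and 1.73 and 1.99 in the Control files, a change of -0.35. The groups overlapped on these Lef1 and Ctnnb1 probes. Tcf7l2 A_52_P146043 had 0.43 and -0.013 in the Wnt3A files and 1.40 and 1.68 in the Control files. It was lower without overlap, with a change of -1.33 (95% interval -4.12 to 1.46).

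Tcf7l2 A_52_P566741 had 0.085 and 1.26 in the Wnt3A files and -3.53 and -2.03 in the Control files. Its spot on Control replicate 1 was not well above background, so the fitted difference of 3.45 (unadjusted p 0.0154, adjusted p 0.9999) rests in part on an undetected value, and without that file it was 2.70 (unadjusted p 0.136). With normexp background correction and quantile scaling it gave 2.53 with an unadjusted p of 0.0118. By those rules 1.17% and 0.954% of all probes were higher. Of the 10 member probes tested in both sources, 4 had the same direction, and of all 27613 probes tested in both, 50.1% did. Limma on the processed scanner values passed 2 probes of 28717 (0.00696%), none of them a member, and 749 (2.61%) at an unadjusted p under 0.05. The values given for the members therefore hold for the deposited table.

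**Figure D3:**
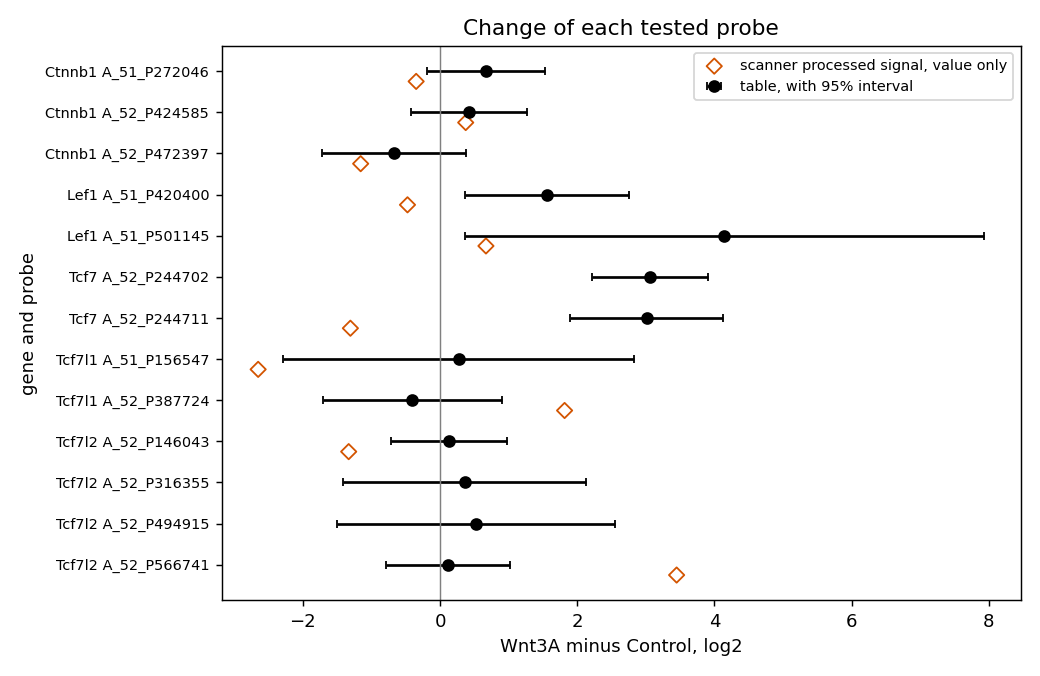
Change of each tested member probe (log2, Wnt3A minus Control) in the deposited table with its 95% interval from limma (filled points), and in the scanner files by the processed signal where it was tested there (open diamonds). The table intervals of both Tcf7 probes and of Lef1 A_51_P420400 and A_51_P501145 lie above 0 and all others include 0, and the diamond of Tcf7 A_52_P244711 lies at -1.31. The Control replicate 1 value of Lef1 A_51_P501145 was below the floor.

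**Figure D4:**
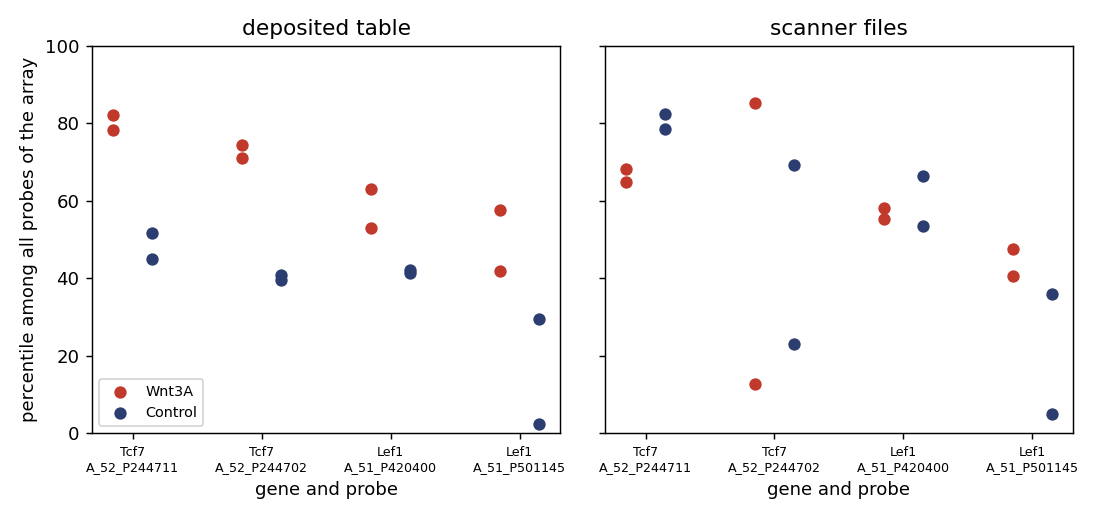
Percentile of the Tcf7 probes and the tested Lef1 probes among all probes of an array, in the deposited table and in the scanner files, Wnt3A left of Control. Tcf7 A_52_P244711 stands at the 78.3 and 82.1 percentiles on the Wnt3A arrays of the table against 51.6 and 45.0 on the Control arrays, and at 64.8 and 68.1 against 78.4 and 82.4 in the scanner files.

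The partners of beta-catenin were read by the brightest probe of each gene, in lists chosen with earlier results known. Over all 22859 genes, 0.643% passed the adjusted threshold (0.402% higher and 0.241% lower). In sign alone, 11201 genes were higher and 11658 lower, with a median change of -0.01. By the brightest probe, 0 genes of these lists passed. At an unadjusted p under 0.05, 6.31% of all genes were higher and 6.34% lower.

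Of 12 coactivators, which help beta-catenin to activate transcription, 10 were higher and 2 lower, with a median change of 0.28 and none at an unadjusted p under 0.05. The histone acetyltransferase Ep300 had 0.74 (adjusted p 0.516), Pygo1, which reads a histone mark, had 1.05 (0.546), and the chromatin remodeller Smarca4 had -0.36 (0.697). Dimmer probes of Ep300 had 2.43 (limma p 0.0402, adjusted p 0.342) and 0.72 (adjusted p 0.505). The change of 2.43 rests in part on an undetected value, 0.0595 in Control replicate 2. Ep300 probe A_51_P142128 was below the floor in both Control arrays and at least 3.125-fold higher against it. Its limma p of 0.0152 (adjusted p 0.236) rests on those undetected values. Of 15 corepressors and inhibitors, 7 were higher and 8 lower, with a median of -0.07. At an unadjusted limma p under 0.05, 2 were higher and 1 lower. Tle4, of the Groucho family, had 1.93 (0.167), the kinase Nlk, which phosphorylates TCF/LEF proteins, had -1.37 (0.315), and the corepressor Ctbp2 had 0.92 (0.322). Tle4 had 0.0809 and 0.0583 in the Control arrays, the latter below the floor, so its change rests in part on an undetected value. The other Ctbp2 probe had 0.051, and the mean of both had 0.48 (0.582).

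Of 11 genes of the beta-catenin destruction complex, 6 were higher and 5 lower, with a median of 0.20. At an unadjusted limma p under 0.05, 1 was higher (Axin2) and 0 lower. The scaffold Axin2, a known Wnt target, had 0.126 and 0.208 in the Wnt3A arrays and 0.0156 and 0.0138 in the Control arrays. No Control array was above the floor, so Axin2 was at least 2.45-fold higher against the floor. Its adjusted p in limma, 0.0645, rests on those undetected values. The ubiquitin ligase subunit Fbxw11 had -0.67 (0.555) and Axin1 had 0.38 (0.714). The other Fbxw11 probe went the other way, with 1.36, and the mean of both had 0.34 (0.719).

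Of 13 genes of the cadherin and catenin complex, where beta-catenin serves adhesion, 8 were higher and 5 lower, with a median of 0.11. At an unadjusted limma p under 0.05, 3 were higher and 1 lower. The brightest probe of Cdh11, a cadherin of mesenchymal cells, had 144 and 154 in the Wnt3A arrays, against 22.5 and 29.4 in the Control arrays. Its change was 2.54 ± 0.31 (SE, adjusted p 0.0738). The other 2 Cdh11 probes passed, with an adjusted p of 0.0226 each, but entered the test only through the Wnt3A arrays. These p-values rest on undetected Control values. The probes had 27.1 and 21.8 and 10.8 and 12.7 in the Wnt3A arrays and no Control array above the floor. Against the floor these probes were at least 368-fold and at least 177-fold higher. The brightest probe was far above the floor in both Control arrays, so the probes disagree on the Control level of Cdh11. These bounds therefore describe the probes and not the gene, and the reason for the disagreement was not tested. Cdh3 had 1.74 (0.171) and Cdh1, the cadherin of epithelia, had -1.23 (0.257).

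Of 15 genes listed as TCF targets, 14 were tested. Higher were 11 of them, 8 at an unadjusted p under 0.05, and lower were 3, with a median of 1.28. Of those 8, Axin2 was below the floor in both Control arrays and Lgr5 in 1. Nkd1, a feedback inhibitor of the pathway, had 1.31 and 1.38 in the Wnt3A arrays and 0.169 and 0.205 in the Control arrays, a change of 2.86 ± 0.30 (SE, adjusted p 0.0581). The other Nkd1 probe had 0.60 (0.596), and the mean of both had 1.73 (0.110). Rnf43, a ubiquitin ligase that removes Wnt receptors, had 3.45 (0.124). The other Rnf43 probe was below the floor in both Control arrays and at least 22.1-fold higher against it. Its adjusted p in limma, 0.135, rests on those undetected values. The list was known to hold genes that differed in these samples, so its direction is no independent evidence.

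**Figure D5:**
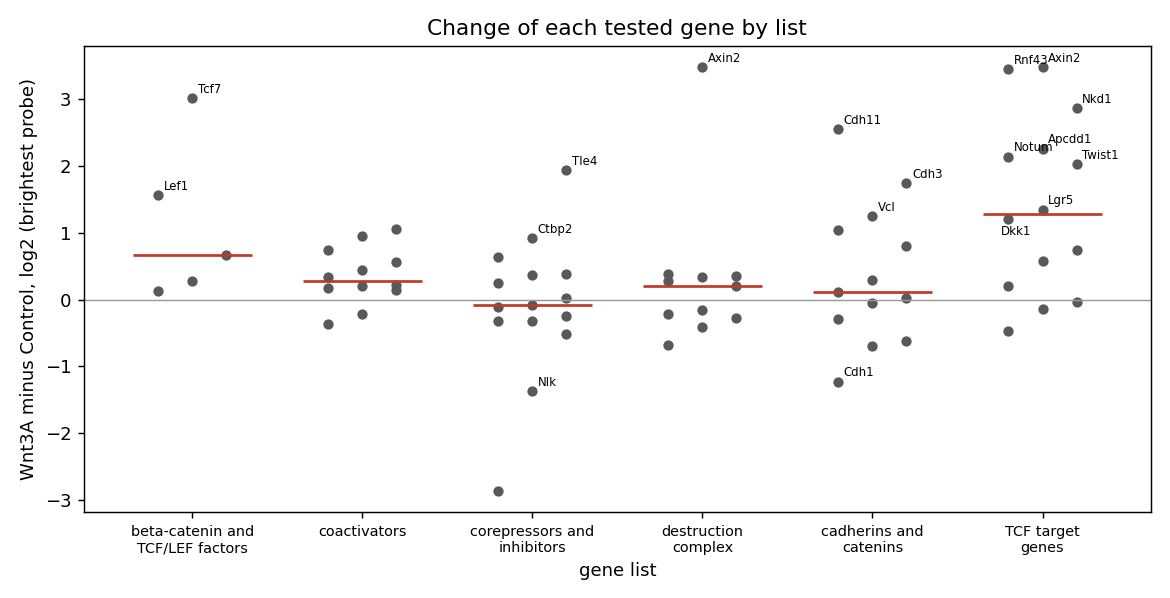
Change (log2, Wnt3A minus Control) of the brightest probe of each tested gene in the lists (points, named where the unadjusted p was under 0.05), with the median of each list (red line). The median of the TCF target list is 1.28 and those of the other partner lists lie between -0.07 and 0.28, and Axin2, in 2 lists, is a fitted value against Control arrays below the floor.

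The genes most like each member over the 4 arrays were found by the Euclidean distance between log2 values centred on each gene's mean, taking the brightest probes. Tcf7 was nearest to Fbxl21, Etl4 and 1700018B08Rik (distances 0.0896 to 0.197), and 23 genes lay within 0.5 of it. Lef1 was nearest to TC1629326, Rbpms2 and Dab1 (0.0841 to 0.142), with 107 within 0.5. Tcf7l1 was nearest to Pcdhb19, Nup35 and Nyap1 (0.152 to 0.226), with 22.

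Ctnnb1 and Tcf7l2 had many neighbours. Within 0.5 of Ctnnb1 lay 1519 genes, with AK017011, Kprp and Rassf7 nearest (0.0496 to 0.0523), and within 0.5 of Tcf7l2 lay 5564, with Ino80, AV124335 and Wnt8b nearest (0.0229 to 0.0406). With 4 arrays, a short distance describes these arrays and no more.

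The RefSeq promoter windows (build GRCm38.p6, 250 bases before to 50 after a start) of the members were searched on both strands for the TCF core letters CTTTGAT and CTTTGAA. None of the 2 windows of Ctnnb1, 4 of Lef1, 2 of Tcf7, 1 of Tcf7l1 and 2 of Tcf7l2 held either, against 8.65% of 32851 windows of the same length. The search says only that these letters are absent from these windows.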

How the data were processed

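The members, lists and main source were chosen with earlier results of these data known. Those had shown that the groups separate in the table and not in the scanner files, so the choice of the table favours a difference. The deposited table holds linear intensity values. Their scaling by the authors is not given in the sources used here. All 4 of its columns were closest in rank to the scanner file of Control replicate 2. The scanner files hold intensity and 0 or 1 flags (other), deposited from Agilent Feature Extraction 10.5.1.1, per the file headers. All 4 scans shared 1 slide, so no slide effect could be fitted.

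The 43379 spots were averaged into 41174 probes on log2 values less the 75th percentile of each array. The floor was 4.94 times the 1st percentile of a column, the median ratio of the lowest signal well above background to that percentile in the scanner files, so it carries over to the table only if the same arrays or like ones lie behind both. Probes were named by accession (24375), by symbol (8727) or by the name in the file (8072). Limma 3.58.1 in R 4.3.3 (lmFit, eBayes, two-sided) gave all p-values, after a check on simulated data. Each gene of a list was read by its brightest kept probe. Named were all members, each list's 3 genes of smallest p and any that passed, and 3 nearest genes per member, and the other 2 Cdh11 probes were named after their values were seen. Where neither Control array exceeded the floor, a fold was computed against the floor, as a lower bound that holds only if detection reaches it. Alternatives covered the source, scaling, filter, floor, eBayes settings, pairing and each array left out.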

Additional observations from a re-analysis of the deposited data

How the results depend on the processing

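With 2 arrays in each group, every value is imprecise. Over 11 alternatives on the table, 130 of 141 member values kept direction and side of the threshold, 2 passed it and 9 reversed. Tcf7 A_52_P244702 (3.06) passed under trend and robust settings (adjusted p 0.0485) and under a floor raised 2 times (0.0411). Leaving out 1 array, the changes ran from -0.87 to 1.42 for Tcf7l1 A_51_P156547, -0.95 to 0.14 for A_52_P387724, and, for Tcf7l2, -0.28 to 1.00 for A_52_P316355, -0.29 to 1.34 for A_52_P494915 and -0.051 to 0.29 for A_52_P566741. Of 30 values from the scanner files, 19 reversed. With the processed signal these were -0.35 for Ctnnb1 A_51_P272046, -0.47 for Lef1 A_51_P420400, -1.31 for Tcf7 A_52_P244711, -2.65 and 1.82 for Tcf7l1 A_51_P156547 and A_52_P387724, and -1.33 for Tcf7l2 A_52_P146043. With normexp and quantile scaling the same probes gave -0.49, -0.11, -1.04, -0.90, 0.55 and -1.22. With the processed signal without Control replicate 1, an alternative chosen after seeing the data, they gave -0.48, -1.05, -1.50, -2.05, 4.08 and -1.47, and Ctnnb1 A_52_P424585 gave -0.25. Among list genes, Ep300 had -2.41, -1.88 and -3.29 and Tle4 -0.79, -0.27 and -0.42 in these 3 settings, Nlk 0.33 and Axin1 -0.13 with normexp, and Fbxw11 0.47 and Axin1 -0.83 without Control replicate 1. The cause was not tested. Probes called higher and lower, 143 and 86 as reported, numbered 35 and 19 with no filter, 26 and 19 when above the floor on all arrays, 193 and 158 under trend and robust settings, 186 and 131 under the raised floor, 0 and 2 with the processed signal, and 0 and 0 with normexp (466 at an unadjusted p under 0.05), with the processed signal without Control replicate 1 (576) and with any 1 array left out (3476 to 4253), where fewer degrees of freedom remain. In the lists, called genes numbered 1 in the destruction complex and 2 among TCF targets with a floor 2 times as high, 1 in the cadherin and catenin list with trend and robust settings, and 1, 1, 1 and 2 among the members, destruction complex, cadherin and catenin and TCF target lists with the mean of probes, which for Axin2, Cdh11 and Rnf43 includes probes below the floor in both Control arrays. Replicate numbers are shared between the groups, and the deviations of same-numbered arrays correlated at 0.01. That value shows no shared shift over the probes, but so few arrays cannot tell whether same-numbered samples were handled together. The fit with the replicate number as a block called 0 higher and 0 lower (4367 unadjusted).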
